A study of Mus musculus with 11 samples.

Results

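The transcriptome of normal epididymal fat was described from 4 arrays, each hybridized with total RNA from the epididymal fat of wild-type mice (B1+/+) of the C57BL/6 strain. The mice were male, 3 months old and fed standard chow, and the tissue had been snap frozen. These 4 arrays were chosen by their label and are 4 of the 11 arrays of the study. The study asked about the kinin B1 receptor in fat, and its other arrays, 4 from B1-/- knockout mice and 3 from aP2B1-B1-/- mice with the receptor restored in fat, were not used here. The labels call the 4 arrays biological replicates and say nothing further of their source, so the spread between them may hold technical as well as biological differences. With a single group there was no contrast to test, and all values are a description.

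Epididymal fat is a visceral white depot that lies along the male reproductive tract. Its adipocytes take up fatty acids that lipoprotein lipase frees in the capillaries, build fatty acids from glucose and acetate, store both as triglyceride in a lipid droplet coated by perilipin-family proteins, release them again through a chain of lipases, and secrete hormones such as adiponectin and leptin. Between the adipocytes lie capillaries, fibroblast-like progenitors, macrophages and other immune cells, and a mesothelium covers the surface of the depot.

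Each array measured 45101 probe sets, reported as MAS5 signal, a brightness in arbitrary units that the authors' software had scaled to the same trimmed mean on every array. Medians over all probe sets lay between 41.3 and 45.1. Array 1 stood somewhat apart from the others: its log2 signals differed from the mean of the other 3 with an SD of 0.47 over genes above background, against 0.35 to 0.40 for arrays 2 to 4. The closest pair was arrays 3 and 4 (root mean square log2 difference 0.39) and the farthest arrays 1 and 4 (0.58). Probe sets at the 3' and 5' ends of actin gave ratios of 1.65 to 1.83, and those of Gapdh 0.918 to 1.03, so these RNA quality controls did not set array 1 apart. No pair of arrays shared more than 209 of 45101 identical values. For genes and lists that stood out on array 1, the spread is given for the most part with and without it.

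A gene was represented by its brightest probe set with a single symbol, which gave 18193 genes. Background was taken as the signal of 27.0 below which 95% of 72 olfactory, vomeronasal and trace amine receptor genes lay. By that limit 12291 genes (67.6%) were above background in the mean of the 4 arrays, and 11361 (62.4%) on all 4 arrays. Ranks given here order the signals of probe sets, which also depend on how well each probe set hybridizes, and are not an order of transcript abundance.

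Several of the brightest genes are known from fat-storing cells. Fabp4, which carries fatty acids inside adipocytes, ranked 2 with signals of 24836, 20131, 27473 and 29006 on arrays 1 to 4, a mean of 25362 ± 3889 (SD, n = 4). Adipoq, which encodes the hormone adiponectin, ranked 7 with 20886, 17114, 22331 and 23627, a mean of 20989 ± 2816 (SD, n = 4). Both adipocyte markers were lowest on array 2 and highest on array 4, with ratios of 1.44 and 1.38 between those arrays. Cfd and Plin1, the other adipocyte markers chosen for this depot, were not analysed here. Gsn, which encodes the actin-severing protein gelsolin, ranked 1 with 25809, 21776, 27558 and 29453. Car3, a carbonic anhydrase of adipocytes and muscle, gave 24442, 20697, 24602 and 27528. Scd1, the desaturase that makes monounsaturated fatty acids, gave 22070.3, 17263, 24408 and 25689.8. The same order of arrays, 2 lowest and 4 highest, held for each of these genes. It was less uniform in their other probe sets: of the 3 of Fabp4 above background 2 were lowest on array 2 and 0 highest on array 4, and of the 4 of Gsn 2 were lowest on array 2 and 2 highest on array 4. The next places among fat genes went to Lpl, the lipoprotein lipase (rank 8), Cyp2e1, a microsomal P450 enzyme (rank 9), Cav1, which forms caveolae (rank 13), Dbi, which binds acyl-CoA (rank 17), and Cd36, a fatty acid transporter (rank 18). Lgals1 (galectin-1, rank 5), Sparc (a matrix glycoprotein, rank 12), Fth1 (ferritin heavy chain, rank 14), Apoe (apolipoprotein E, rank 24) and Dcn (decorin, rank 29) are made by more than 1 cell type of the depot.

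**Figure D1:**
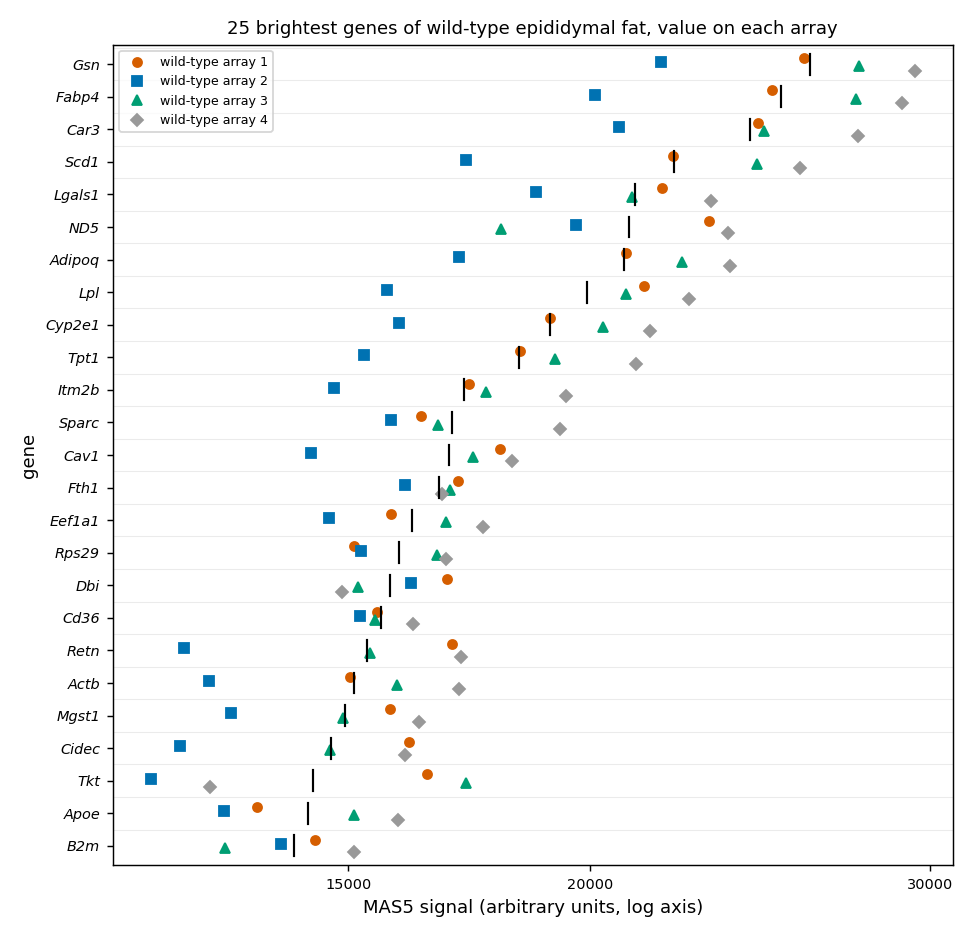
MAS5 signal (arbitrary units, log axis) of the 25 brightest genes on each of the 4 wild-type arrays, with a black bar at the geometric mean. Array 2 held the lowest value in 21 of 25 genes and array 4 the highest in 21.

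Array 2 was lowest in 30 of the 40 brightest genes and array 4 highest in 31, against 29.1% and 25.1% of all genes above background. These 40 genes were lower than their own means by an average of 0.17 on the log2 scale on array 2 and higher by 0.10 on array 4. They made up 7.04% of the summed signal on array 2 and 7.84% to 8.44% on the others. Whether this shift at the top of the scale has a part in the array 2 values of single bright genes was not tested. All 8 genes measured of the 9 in the fatty acid uptake list were above background, against 67.6% of all genes. Cd36 had the lowest spread of that list, with 15525, 15209, 15487 and 16194 and a log2 SD of 0.04. Fth1 gave a log2 SD of 0.04 as well.

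Of the 100 brightest genes, 16 encoded ribosomal proteins, 7 respiratory chain or ATP synthase subunits, 7 proteins of the lipid droplet and lipolysis, 5 enzymes or regulators of lipid synthesis, 4 fatty acid uptake and binding proteins, 4 antioxidant proteins, 3 adipokines and 3 matrix proteins. The other lists held at most 2 each, and 45 genes were in no list. The ribosomal and respiratory chain lists were drawn up after values had been seen. With all probe sets of a gene averaged in place of the brightest, 60 of these 100 genes remained among the 100 brightest.

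Among 18 secreted adipocyte products listed, 17 were measured and 16 (94.1%) were above background, against 67.6% of all genes. Retn, the hormone resistin, gave 16968, 12334, 15390.0 and 17145. Hp, haptoglobin, gave 11070.2, 11431, 10968 and 13909. Rbp4, the retinol carrier, gave 7866, 7813, 8506 and 6857. These 3 hormones and carriers varied by less than 1.5-fold between arrays. Lep, the satiety hormone leptin, gave 2252, 2385, 2125 and 3221, highest on array 4 and near-equal on the rest. Angptl4, an inhibitor of lipoprotein lipase, gave 6309, 4621, 4358 and 4619, highest on array 1. The member below background in the mean was Serpina12, the adipokine vaspin, at 30.2, 5.9, 5.7 and 17.9.

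A pair of secreted products varied far more than the others. Lcn2, lipocalin-2, an iron-siderophore binder of innate defence, gave 97.9, 314, 1047 and 1174, a log2 SD of 1.68 over 4 arrays and 1.05 without array 1. Arrays 3 and 4 were high and array 1 was 12.0-fold below the highest. Sfrp5, a secreted Wnt antagonist, gave 235, 1047, 587 and 543, lowest on array 1 and highest on array 2, with a log2 SD of 0.89 and 0.52 without array 1. Its other probe set, at 186, 458, 172 and 186, was also highest on array 2 but did not set array 1 apart.

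The lipid droplet and lipolysis list had 15 of 16 genes measured and 14 above background, against 67.6% of all genes. Of the 14, 13 were among the 3073 brightest genes of the array. Cidec, which drives droplet fusion, gave 16128, 12271, 14673 and 16047. Plin4, a droplet coat protein, gave 13665, 11573, 14058 and 16256. The lipases that act in turn on stored triglyceride were all bright and steady. Pnpla2 (ATGL), which makes the first cut, had a mean of 10777 ± 1235 (SD, n = 4). Lipe, the hormone-sensitive lipase, had 8034 ± 720.0 (SD, n = 4). Mgll, which frees the last fatty acid, had 10595 ± 496 (SD, n = 4). The log2 SD of the list's members above background ran from 0.07 to 0.28. As a group they were lowest on array 2 in 10 of 14 genes, against 29.1% of all genes above background. The 40 brightest genes of any kind were lowest there in 30, so this order is not particular to the list. The list means were 0.13, -0.13, -0.01 and 0.02 on arrays 1 to 4 (log2 signal minus each gene's own mean over the 4 arrays). Quantile normalization, which removes differences in the shape of the signal distribution, left array 2 at -0.08.

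Lipid synthesis genes varied together between the arrays. All 21 genes were above background, against 67.6% of all genes, and 20 of them were among the 3073 brightest. Of the 21, 14 were lowest on array 4 (background 23.4% of genes) and 13 highest on array 1 (background 28.2%). The list means were 0.23, 0.00, 0.13 and -0.36 on arrays 1 to 4. Fasn, fatty acid synthase, gave 14843, 11193, 13772 and 8490.4. Acly, which supplies cytosolic acetyl-CoA from citrate, gave 5306, 5712, 6359.9 and 2327. Acss2, which makes acetyl-CoA from acetate, gave 2097, 1953, 1935 and 728. In each of these enzymes array 4 was the lowest, and for Acly and Acss2 the other 3 arrays lay close together. Elovl6, the elongase of saturated fatty acids, gave 517, 765, 759 and 234. Me1, malic enzyme, a source of NADPH, gave 8162, 5367, 6567 and 3169. Scd2, a desaturase related to Scd1, gave 4714, 3299, 2703 and 1469.5. These 3 were also lowest on array 4. A further 2 probe sets of Acly, 1 each of Acss2, Elovl6 and Me1 and 2 of Scd2 were above background, and all were lowest on array 4 too. Scd1 was instead highest on array 4, but its other probe set, at 10197, 9073, 9366 and 9423, was highest on array 1. The SD of the list mean was 0.26, and it rested on array 4: it was 0.11 without that array and 0.25 to 0.31 without any of the others. In bulk tissue, fewer cells of a type and less RNA per cell cannot be told apart.

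The sequences before the start of 4 of these genes are shown because Adipoq was among the brightest and Fasn, Acly and Acss2 shared the low value on array 4. They are the 250 bases before the annotated start, 5′ to 3′ on the gene's strand, from a RefSeq promoter table of the build GRCm38.p6. The windows are chr16:23146286-23146535, plus strand (Adipoq), chr11:120824548-120824797, minus strand (Fasn), chr11:100528001-100528250, minus strand (Acly), and chr2:155517793-155518042, plus strand (Acss2). Capitals mark the letters CCAAT or GGGCGG (the GC box) found on either strand, so that ATTGG and CCGCCC are the same motifs read from the other strand.
Adipoq: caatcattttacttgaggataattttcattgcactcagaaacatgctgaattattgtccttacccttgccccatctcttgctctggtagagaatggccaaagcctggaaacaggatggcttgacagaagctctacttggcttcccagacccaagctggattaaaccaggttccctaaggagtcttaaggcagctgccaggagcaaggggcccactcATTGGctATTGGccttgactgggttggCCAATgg
Fasn: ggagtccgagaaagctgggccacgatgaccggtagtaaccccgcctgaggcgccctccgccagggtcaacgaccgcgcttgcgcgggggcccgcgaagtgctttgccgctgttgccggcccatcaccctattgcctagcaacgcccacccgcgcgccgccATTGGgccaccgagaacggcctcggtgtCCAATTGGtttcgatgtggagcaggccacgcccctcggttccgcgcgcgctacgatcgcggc
Acly: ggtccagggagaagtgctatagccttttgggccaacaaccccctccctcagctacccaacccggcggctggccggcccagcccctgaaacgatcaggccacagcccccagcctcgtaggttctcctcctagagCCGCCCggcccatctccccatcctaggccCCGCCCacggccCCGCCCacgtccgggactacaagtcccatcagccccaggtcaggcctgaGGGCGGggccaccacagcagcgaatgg
Acss2: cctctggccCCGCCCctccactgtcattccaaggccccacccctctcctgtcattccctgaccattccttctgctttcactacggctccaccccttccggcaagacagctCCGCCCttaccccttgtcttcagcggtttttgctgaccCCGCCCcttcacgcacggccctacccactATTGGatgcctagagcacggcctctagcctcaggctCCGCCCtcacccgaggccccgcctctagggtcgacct
Adipoq and Fasn held 3 matches to CCAAT each and no GC box, and a pair of the Fasn matches overlapped on opposite strands. Acly held 4 GC boxes and no CCAAT, and Acss2 held 4 GC boxes and 1 CCAAT. Searched the same way on both strands, CCAAT was present in 37.5% of the 27025 promoters in the table, 39.7% of the 9899 found for genes above background, 48.7% of the 78 found for the 100 brightest genes and 10 of 16 found for lipid synthesis genes. GGGCGG was present in 35.4%, 63.3% and 60.3% of the first 3 sets and 10 of 16 lipid synthesis promoters. CACGTG, an E-box, was present in 6.86% of all promoters, 9.99% of those of genes above background and 4 of 16 lipid synthesis promoters. TATAAA was present in 14.3% of all promoters, 8.05% of those of genes above background, 16 of 78 promoters of the brightest genes and 0 of 16 lipid synthesis promoters. These are matches of letters in a window and describe no binding.

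Transcription factors of the adipocyte were measured at moderate signals and all 11 were above background, against 67.6% of all genes. Cebpa, a master factor of fat cell differentiation, gave 9111, 7217, 8041 and 8272. Pparg, the nuclear receptor that directs adipocyte genes, gave 2687, 2932, 3154 and 3041, a log2 SD of 0.10. Both varied by less than 1.5-fold. Cebpd, an early and hormone-responsive member of the same family, was the exception with 537, 1510.4, 1782 and 1769. Array 1 lay 3.32-fold below the highest, and without it the log2 SD fell from 0.83 to 0.13.

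Of 16 receptors and transporters listed, 11 were measured and all 11 were above background, against 67.6% of all genes. Ghr, the growth hormone receptor, was the brightest with 14595, 11575, 12242 and 11835. Slc2a4, the insulin-regulated glucose transporter GLUT4, gave 2342, 1487, 1711 and 1476. Irs1, the insulin receptor substrate, gave 2084, 1047, 1180.1 and 1196. All 3 were highest on array 1, and Irs1 had a log2 SD of 0.44 with that array and 0.11 without it. Genes of brown and beige fat were mostly at background, with 6 of 13 measured members (46.2%) above it. Ucp1, the uncoupling protein that defines thermogenic fat, was below background on every array at 2.0, 1.8, 2.8 and 2.0. Cox8b, a cytochrome oxidase subunit of brown fat and muscle, gave 379.9, 279, 271 and 231.

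**Figure D2:**
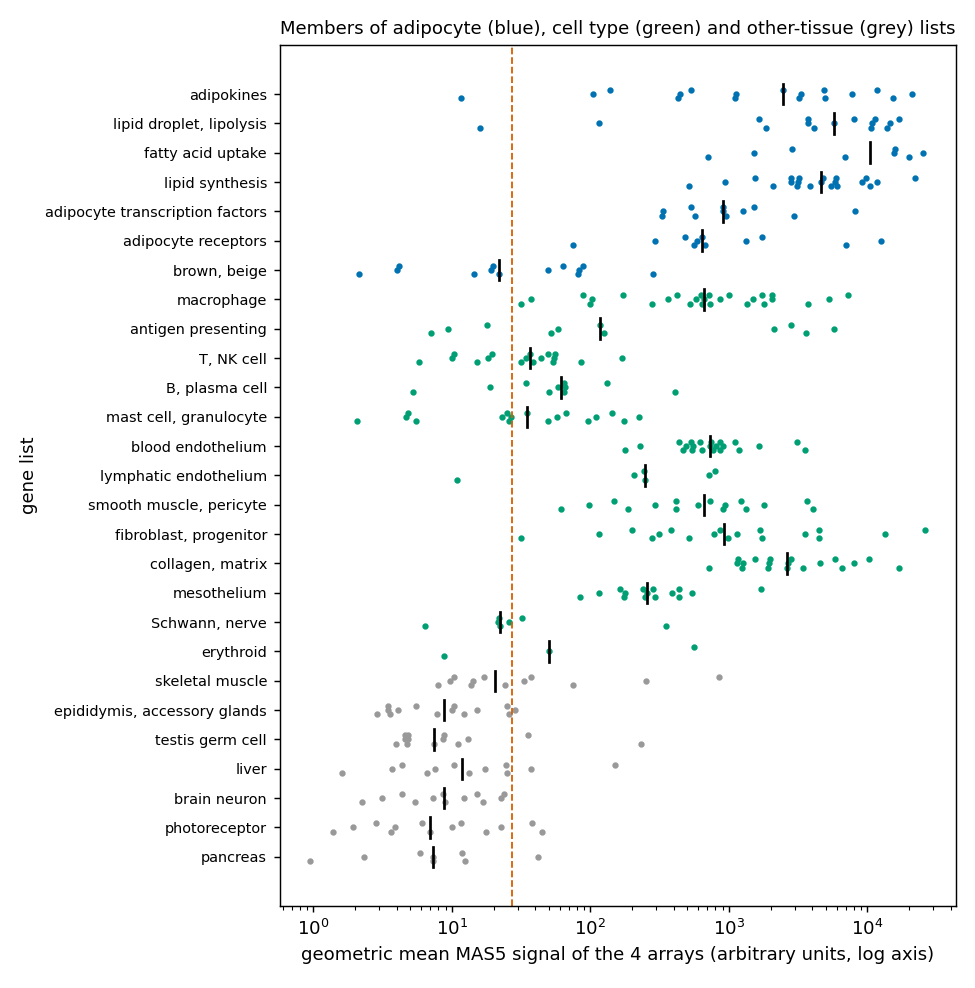
Geometric mean MAS5 signal of the 4 wild-type arrays (arbitrary units, log axis) for each measured member of the adipocyte lists (blue), the lists of other cell types of the depot (green) and lists of other tissues (grey). Black bars mark list medians and the dashed line the background of 27.0; medians of fatty acid uptake, macrophage and neuron lists were 10369, 657 and 8.81.

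Genes of the supporting tissue were bright as well. All 19 matrix genes measured and all 18 fibroblast and progenitor genes measured were above background, with median signals of 2633 and 923. Of all genes, 67.6% were above background. Col3a1, a fibrillar collagen, gave 9363, 10959, 9665 and 11222. Col4a1, a basement membrane collagen, gave 7271, 8303, 8083 and 8599. In these probe sets both were lowest on array 1 and varied by at most 1.2-fold. The other probe set of Col3a1 varied more, at 462, 990, 593 and 733.5. That of Col4a1 was lowest on array 2, at 3881, 3802, 3947 and 3992. Col1a1, the main chain of type I collagen, gave 1379, 2729, 1866 and 2188. Lum, the proteoglycan lumican, gave 1142, 2453, 1699 and 1908. Both were lowest on array 1 and highest on array 2. The other probe set of Col1a1, at 220, 419, 216 and 259, was also highest on array 2 but lowest on array 3. Pdgfra, the receptor that marks adipocyte progenitors, gave 563, 789, 967 and 872. Dpp4, a peptidase of an early progenitor, gave 159, 335, 302 and 372. Postn, the matrix protein periostin, gave 1421, 1803, 1855 and 1695. In all 3 array 1 was the lowest. Matrix genes were lowest there in 14 of 19. Over the fibroblast list, 13 of 18 genes were lowest on array 1 (background 29.4%), and their list means were -0.33, 0.10, 0.13 and 0.10. The other 3 arrays lay close together.

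Blood vessels were represented by 22 endothelial genes, all above background, against 67.6% of all genes, with a median signal of 735. Aqp1, a water channel of capillaries, gave 3351, 3786, 3359.7 and 3622. Gpihbp1, which holds lipoprotein lipase on the capillary wall, gave 3092, 2740.4, 3411 and 3239. Flt1, a VEGF receptor, gave 449, 456, 422 and 429. These varied little, by 1.13-, 1.24- and 1.08-fold between the lowest and highest array. Sox17, a factor of arterial endothelium, was low on array 1 with 461, 1096, 981 and 1109.6, and its other probe set above background was also lowest there. Kdr, the main VEGF receptor, was instead lowest on array 2 with 674, 365, 539.7 and 674. Over the list, 15 of 22 genes were lowest on array 1 (background 29.4%). Of lymphatic genes 5 of 6 (83.3%) were above background, against 67.6% of all genes. Lyve1, a hyaluronan receptor shared with macrophages, gave 473, 839, 967 and 699.6. Prox1, which defines lymphatic endothelium, was below background on every array at 8.6, 9.3, 14 and 12.7.

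The contractile cells of vessel walls gave 16 of 16 genes above background, against 67.6% of all genes. Acta2, smooth muscle actin, gave 2389.5, 3922, 5069.7 and 3849. Tagln, an actin-binding protein of smooth muscle, gave 780.2, 1255, 1781 and 1278. Myh11, the smooth muscle myosin, gave 362.5, 569.7, 848 and 739. In each case array 1 was lowest and array 3 highest, with ratios of 2.12, 2.28 and 2.34. In their brightest probe sets the pericyte genes Rgs5 and Mcam moved less. Rgs5, a G protein regulator, gave 3348, 4219, 4249 and 4407. Its other probe sets were also lowest on array 1 but varied more, at 801, 1012.5, 1195 and 1553 in the brightest of them. Mcam, an adhesion molecule, gave 1977, 1731, 1695 and 1782 and was highest on array 1. For the whole list 12 of 16 genes were lowest on array 1 and 9 highest on array 3 (background 29.4% and 23.8%), with list means of -0.40, 0.00, 0.31 and 0.09.

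Macrophage genes formed the immune list with every member above background, 27 of 27, 25 of them on all 4 arrays, with a median signal of 657. Of all genes, 67.6% were above background in the mean and 62.4% on all 4 arrays. Retnla, a marker of alternatively activated macrophages, gave 6378, 8725, 7125 and 6935. Lyz2, the macrophage lysozyme, gave 4147, 6434, 5786 and 4965. Csf1r, the receptor on which macrophages depend, gave 3347, 4199, 4095 and 3469. All 3 were lowest on array 1 and highest on array 2. Across the list, array 1 was lowest in 20 of 27 genes and array 2 highest in 21 (background 29.4% and 23%), and the list means were -0.31, 0.31, 0.05 and -0.04. Among the most variable members were genes known from lipid-handling macrophages. Gpnmb, a transmembrane glycoprotein, gave 186, 522, 505 and 362. Trem2, a lipid-sensing receptor, gave 11.5, 96.2, 39.0 and 23.7. Trem2 was thus below background on arrays 1 and 4. Without array 1 the log2 SD of Gpnmb fell from 0.69 to 0.29 and that of Trem2 from 1.29 to 1.02.

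Lists of other leukocytes were above background in part. Of 11 antigen-presentation genes measured 8 (72.7%) were above background, near the 67.6% of all genes. Cd74, the invariant chain of class II MHC, gave 5012, 5767, 6437 and 6006. H2-Aa, a class II chain, gave 2987, 3832, 4089 and 3721. Both are also made by macrophages, and both were lowest on array 1. T and NK cell genes were above background in 11 of 17 (64.7%), close to the share of all genes. Zap70, a T cell receptor kinase, was the brightest with 291, 109.8, 282 and 90.0 in its brightest probe set. Its other probe sets were below background in the mean, at 16.8, 7.4, 16.1 and 14.7 and at 15.6, 9.6, 30 and 15. No member of the list lay among the 3073 brightest genes. In B and plasma cell genes 8 of 10 (80%) were above background, and all 8 were lowest on array 1 (background 29.4%). Jchain, which joins secreted IgA and IgM, gave 101, 329, 1165 and 740.5, with a log2 SD of 1.55 and 0.92 without array 1. Mzb1, a plasma cell chaperone, gave 24.3, 85.0, 97.0 and 91.9 and was below background on array 1. Bank1, a B cell scaffold, differed less with 118, 135, 149.6 and 130.1. The list means for B and plasma cells were -0.79, 0.13, 0.51 and 0.16, the widest of the cell-type lists with 5 or more members above background, and the SD of these means fell from 0.56 to 0.21 without array 1. Mast cell and granulocyte genes were above background in 9 of 17 (52.9%), a lower share than that of all genes. Cpa3 and Cma1, proteases of mast cells, had means of 147 ± 32.3 (SD, n = 4) and 177 ± 25.5 (SD, n = 4). S100a8, of neutrophils, had 232 ± 64.2 (SD, n = 4). Hdc, which makes histamine, ran from 15.4 on array 1 to 139 on array 4.

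All 15 genes of the mesothelial list were above background, against 67.6% of all genes. Their median signal was 258, and 1 of them was among the 3073 brightest genes. Upk3b, a uroplakin of mesothelium, gave 1259, 2108, 1785 and 1747. Msln, mesothelin, gave 196.5, 296, 285 and 235. Wt1, a factor of mesothelial cells, gave 119, 226, 137 and 198. These 3 were lowest on array 1 and highest on array 2. The keratins Krt8 and Krt18, partners in the filaments of simple epithelia, followed another order. Krt8 gave 83.1, 193.5, 468 and 591.5. Krt18 gave 70.0, 135, 277 and 394. Both were lowest on array 1 and highest on array 4, by 7.12- and 5.62-fold, and the other 2 probe sets of Krt8 gave the same lowest and highest array. Without array 1 their log2 SD fell from 1.29 to 0.85 and from 1.11 to 0.79. Over the list 13 of 15 genes were lowest on array 1 (background 29.4%), with list means of -0.55, 0.13, 0.24 and 0.18. Nerve genes were above background in 2 of 7 (28.6%), against 67.6% of all genes, with Mbp, myelin basic protein, at 263, 396, 363 and 394.5. Of the 3 erythroid genes measured 2 (66.7%) were above background, close to the share of all genes. Alas2, the heme synthesis enzyme of red cells, gave 904, 568, 478 and 409. Slc4a1, the red cell anion exchanger, gave 78.2, 59.4, 48.8 and 27.7. Both ran from highest on array 1 to lowest on array 4.

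Genes of tissues that do not belong to the depot were measured as a check for other tissue in the samples. Of 84 such genes measured, 13 (15.5%) were above background, against 67.6% of all genes. The epididymis and accessory gland list had 1 of 14 above it, Rnase10, an epididymal secreted protein, at 35.8, 40.6, 28.2 and 16.1. Testis had 2 of 13, among them Sycp3, a meiotic chromosome protein, at 271, 318, 247 and 137.5. The liver list had 2 of 12, with Alb, albumin, at 155, 175, 179 and 108. No gene of these 3 lists exceeded the mean of Sycp3, 243 ± 76.6 (SD, n = 4). Neurons had 0 of 12, photoreceptors 2 of 13 and pancreas 1 of 8. Skeletal muscle was the largest with 5 of 12. Myl1, a myosin light chain of fast muscle, gave 1063, 763, 855 and 730.4. Acta1, skeletal muscle actin, gave 491, 214.5, 113.5 and 344. Of the 5 muscle genes 4 were lowest on array 3, against 18.1% of all genes above background.

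The genes of the knocked-out receptor and its relative were at background in normal fat. Bdkrb1, which encodes the kinin B1 receptor, gave 5.5, 32.2, 3.7 and 8.9, below background on average and above it on array 2 alone. Bdkrb2, the kinin B2 receptor, gave 19.9, 9.6, 20.5 and 12.7, below background on every array.

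Most genes differed little between the 4 arrays. The median SD of log2 signal over the 12291 genes above background was 0.20, a factor of 1.15, against 1.07 for genes below background. It fell with brightness, from 0.37 in the dimmest of 4 equal bins to 0.21, 0.16 and 0.14 in the brighter ones. The genes with SD over 0.5 numbered 1153 (9.38%), of which 899 lay in the dimmest bin and 42 in the brightest, which was 1.37% of the 3073 genes there. With log2(value + 50), which damps dim genes, 264 genes passed the same limit, and with all probe sets of a gene averaged 1875 did. In 661 genes (5.38%) a single array lay apart from the other 3 beyond Dixon's 95% limit for 4 samples, and array 1 was that array in 169 of them as the lowest and in 101 as the highest. The steadiest bright genes were Eif3h, a subunit of a translation initiation factor (2179.8, 2199, 2187 and 2201), Ccz1, a vesicle trafficking protein (mean 1182 ± 8.29 (SD, n = 4)), Pts, of tetrahydrobiopterin synthesis (665 ± 5.17), Ehmt2, a histone methyltransferase (1402 ± 11.3), and Ost4, a subunit of the glycosylation complex (2539 ± 24.9). This steadiness is that of their brightest probe sets. Dimmer ones above background spread more, at 118.7, 150.5, 169.8 and 222.2 for Ehmt2 (log2 SD 0.38). For Pts the values were 37, 22, 23.8 and 43.8 (log2 SD 0.48). Ribosomal protein genes, a list drawn up after values had been seen, were as a group steady, with a median SD of 0.09 over the 46 of 49 above background.

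**Figure D3:**
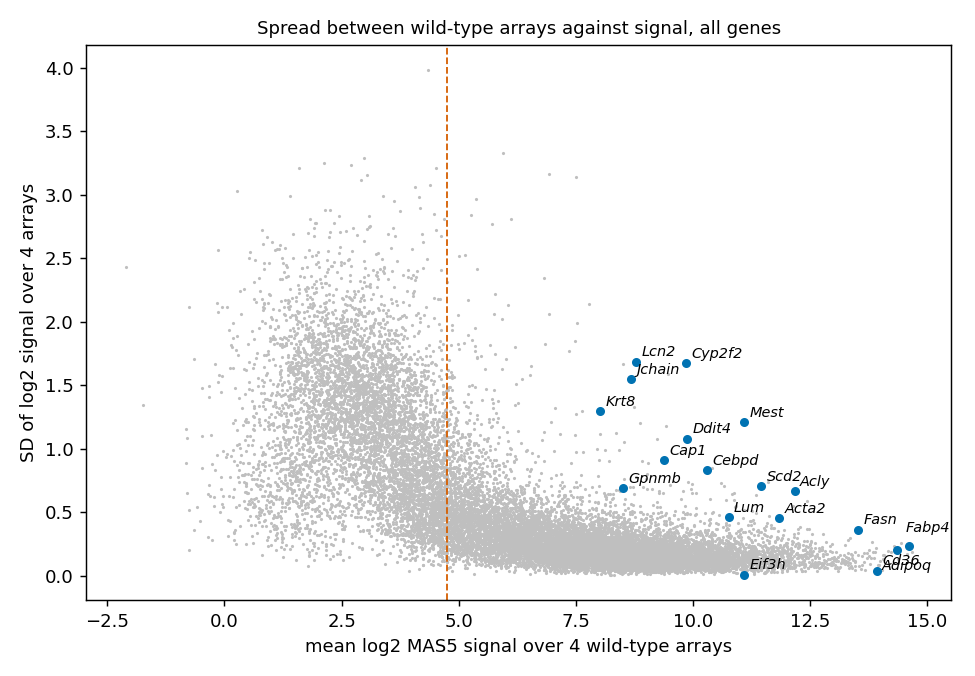
SD of log2 MAS5 signal over the 4 wild-type arrays against mean log2 signal, with each point a gene and the dashed line at the background. Spread rises steeply below the background, and among bright genes Mest and Cyp2f2 (log2 SD 1.21 and 1.67) lie far above Cd36 (0.04).

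Among the 3073 brightest genes, the 15 with the highest SD were led by Cyp2f2, a P450 enzyme known from airway and liver, which gave 4747, 315, 609 and 807. It was 15.1-fold higher on array 1 than on array 2, and without array 1 its log2 SD fell from 1.67 to 0.70. Mest, an imprinted gene linked to the growth of adipocytes, gave 642.5, 3151, 2666 and 4192. Array 1 was lowest, 6.52-fold below array 4, and without it the log2 SD was 0.33 in place of 1.21. Igkv8-30, an immunoglobulin light chain segment, gave 144, 1348, 1603 and 785. It was lowest on array 1 (log2 SD 1.59, 0.54 without that array), as were the plasma cell genes Jchain and Mzb1. Gadd45g, a growth arrest gene, gave 209, 785, 1183 and 1157. Ddit4, an inhibitor of mTORC1, gave 305, 1339, 1388 and 1342. Cap1, a regulator of actin and adenylyl cyclase, gave 259, 918, 933 and 888. In these 3 array 1 alone was low, and without it the log2 SD of Gadd45g fell from 1.18 to 0.33, that of Ddit4 from 1.08 to 0.03 and that of Cap1 from 0.91 to 0.04.

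Errfi1, a feedback inhibitor of the EGF receptor, had 575, 1584, 2041 and 1859, again lowest on array 1 (log2 SD 0.84, 0.18 without it), and its other probe set had the same lowest and highest array. H2aj, a histone variant, was high on array 2 alone with 624, 1999, 880.2 and 759, an order that its 2 other probe sets, both dim, did not repeat. Tspan12, a tetraspanin, was also high on array 2 alone with 673, 1501, 575.5 and 495. Emp1, an epithelial membrane protein, gave 1573, 4381, 2831 and 4833. Adgrg2, an adhesion receptor best known from the epididymis, gave 613, 741, 1232 and 1844. Gja1, the gap junction protein connexin 43, gave 912.5, 1536, 1636 and 3025. The last 3 were lowest on array 1 and highest on array 4, and all 5 other probe sets of Gja1 above background were lowest on array 1. The other probe set of Adgrg2 had the same lowest and highest array. That of Emp1 was dim and did not repeat the order, at 57.6, 4.5, 46.4 and 51. Cebpd, Acss2 and Scd2, described above, complete the 15. Array 1 held the lowest value in 11 of the 15 and in 27 of the 42 bright genes with an SD over 0.5, against 29.4% of all genes above background. Of the 15, 8 had other probe sets above background, 14 in all, and 11 of these were lowest on the same array as the brightest one, 5 of them from Gja1.

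**Figure D4:**
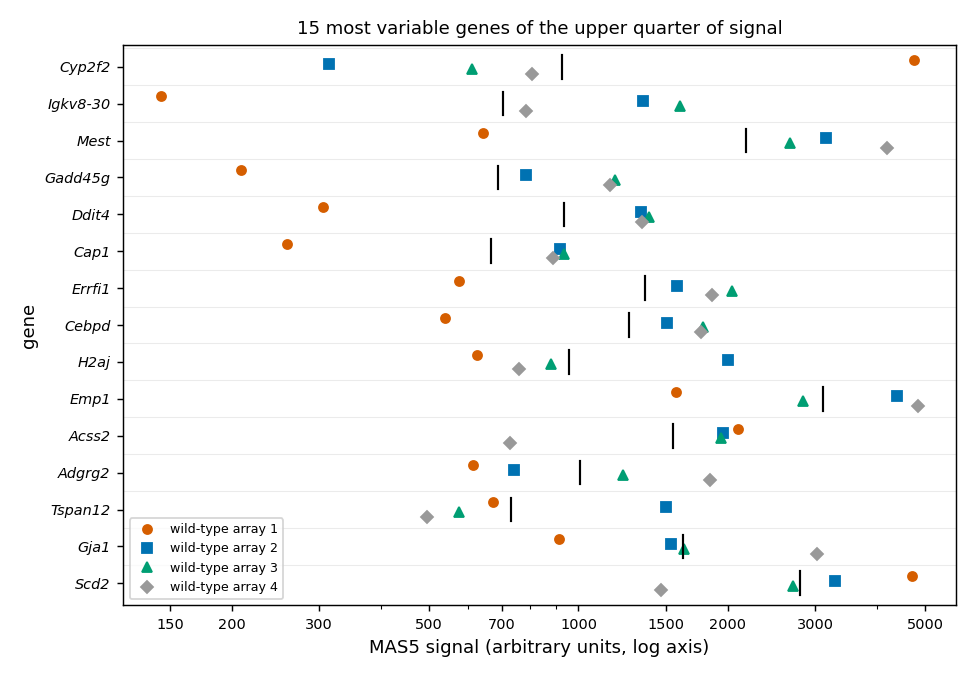
MAS5 signal (arbitrary units, log axis) on each wild-type array of the 15 genes with the highest SD among the 3073 brightest, with a black bar at the geometric mean. Array 1 is the lowest in 11 of 15 genes and the highest in 3.

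The groups of genes described above moved in part together. Each of the 11 lists of other cell types with 5 or more members above background had its lowest mean on array 1, from -0.12 for antigen presentation and -0.15 for blood endothelium to -0.55 for mesothelium and -0.79 for B and plasma cells. Of the adipocyte lists, adipokines (-0.22) and transcription factors (-0.07) also had their lowest mean on array 1. Lipid synthesis (0.23), lipid droplet and lipolysis (0.13), adipocyte receptors (0.06) and fatty acid uptake (0.05) had their highest mean there. Genes of oxidative metabolism were highest on array 1 as well. Array 1 was highest in 14 of 19 genes of the citric acid cycle, 12 of 17 of fatty acid oxidation and 53 of 77 of the respiratory chain and ATP synthase, against 28.2% of all genes. Their list means there were 0.16, 0.16 and 0.10. Without array 1 the SD of the list mean fell from 0.12 to 0.08, from 0.11 to 0.03 and from 0.08 to 0.05 in the same order. The respiratory chain and ATP synthase list was drawn up after values had been seen, so its count and means describe and support nothing. Array 4 was lowest in 9 of 12 glycolysis genes and 11 of 19 citric acid cycle genes, against 23.4% of all genes above background. The part of the proportions of cell types in these shifts was not tested.

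**Figure D5:**
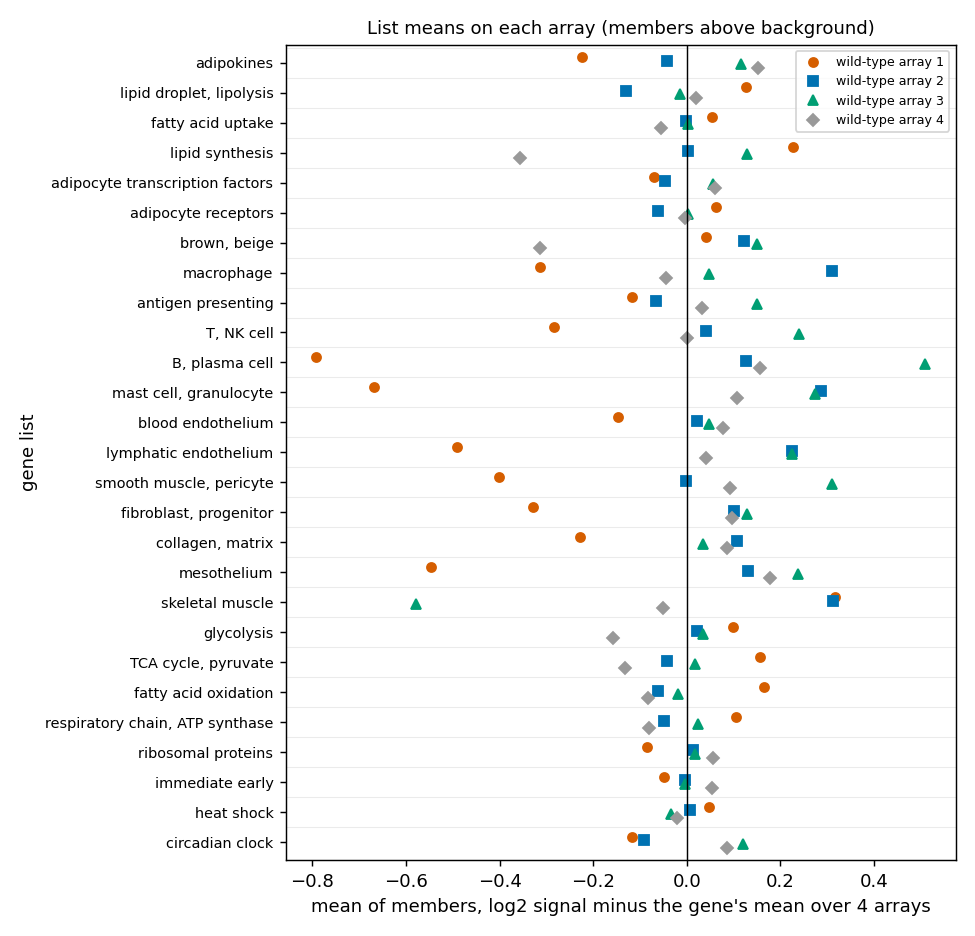
Mean over the members above background of log2 signal minus each gene's mean over the 4 wild-type arrays, for lists with at least 5 such members, on each array. The cell-type lists lie lowest on array 1, with B and plasma cells at -0.79, as do adipokines at -0.22. Lipid synthesis lies lowest on array 4 at -0.36.

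Without array 1 the SD of the list mean was lower in 34 of 38 lists, the exceptions being brown and beige fat, skeletal muscle, testis and liver. The SD of the list mean fell from 0.22 to 0.02 for fibroblasts, from 0.15 to 0.04 for matrix genes, from 0.10 to 0.03 for blood endothelium, from 0.37 to 0.05 for mesothelium and from 0.30 to 0.16 for smooth muscle. For macrophages it fell from 0.26 to 0.18, with array 2 still above the others, and for mast cells and granulocytes from 0.45 to 0.10. The mast cell and granulocyte list was dim, with a median signal of 35.1 and 7 of 17 genes above background on all 4 arrays. With log2(value + 50) its 0.45 became 0.24. None of the list means named here changed sign with median centring or quantile normalization of the arrays where it was at least 0.1 from 0.

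A list of 13 genes known to be induced by glucocorticoids was drawn up after the values of Ddit4, Errfi1 and Cebpd, which it holds, had been seen, so its means describe and support nothing. They were -0.60, 0.16, 0.19 and 0.25, and 10 of 13 were lowest on array 1. Sgk1, a kinase, gave 1042, 2707, 2137 and 2074. Per1, of the clock, gave 379, 599.9, 719.7 and 833.5. Tsc22d3 (GILZ), an anti-inflammatory factor, gave 1754, 2845, 2412 and 2507. These were low on array 1, but not every member of the list was. Fkbp5, a co-chaperone of the glucocorticoid receptor, differed less with 1160.1, 1244, 1341 and 1631. Zbtb16 gave 1419, 1323, 1509.9 and 1245. Klf15, a metabolic regulator, was highest on array 1 with 1193, 809, 959 and 923.5.

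The means of early response lists moved little, although single members differed more. Log2 SDs of members above background reached 1.10 for immediate early genes and 0.31 for heat shock genes. Immediate early genes, which rise within minutes of disturbance, had means of -0.05, 0.00, 0.00 and 0.05, and heat shock genes 0.05, 0.01, -0.03 and -0.02. Hspb1, a small heat shock protein, gave 3288, 3200.3, 3228 and 3365. Clock genes had means of -0.12, -0.09, 0.12 and 0.09. Dbp, a clock output factor, gave 2534, 2973, 2490.1 and 2032. Nr1d2, a clock repressor, gave 3196, 2841, 2769 and 2535. Both were lowest on array 4 in their brightest probe sets, though only 3 of 15 clock genes above background were lowest there. The other probe set of Dbp was lowest on array 4 too. That of Nr1d2, at 225, 124, 179 and 221, was lowest on array 2. Acute phase and complement genes were above background in 8 of 13 (61.5%), against 67.6% of all genes. Saa3, a serum amyloid made in fat, gave 277, 968, 293.5 and 687, high on arrays 2 and 4. Interferon response genes were above background in 14 of 16, cholesterol synthesis genes in 12 of 12 and antioxidant genes in 15 of 15. The share of all genes was 67.6%. Cell cycle genes were mostly dim, with a median signal of 61.0 over 16 measured. Cmklr1, the chemerin receptor, picked after its values were seen, gave 494, 1201, 1122 and 1435, low on array 1 alone.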

How the data were processed

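Total RNA had been labelled with biotin and hybridized to 1 single-colour Affymetrix mouse array per sample, per the labels' protocols. Values are the intensities that the authors deposited for every probe set, linear MAS5 signals made with GCOS 1.3 and MAS5 per the submitters' processing notes. Trimmed by 2% at each end, the mean was 200 on every array, and the table holds no detection calls, so precision was judged from the 4 arrays alone.

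Of 45101 probe sets 64 were controls, 34945 had 1 symbol, 932 several and 9160 none. Symbols were updated through Entrez identifiers to the RefSeq gene table of GRCm38.p6. Deposited intensities were taken to log2 after a floor of 0.1, with no further scaling, and each gene took its brightest probe set. Python 3.11.15 with pandas 2.3.3 and numpy 2.4.6 was used, and the steps were tested on simulated data. No test was run, since there is 1 group. Lists held 589 genes, of which 534 matched and 416 were above background.

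The arrays and lists were chosen with earlier results of these data known. Genes named are Adipoq, Fabp4, Bdkrb1 and Bdkrb2, members of the 40 brightest, the 15 most and 10 least variable of the 3073 brightest, and per list up to 4 brightest and 2 most variable members, or 3 brightest for other tissues. Not all are named. Lep, Pnpla2, Lipe, Mgll, Acly, Me1, Ucp1, Flt1, Prox1, Tagln, Pdgfra, Postn, Msln, Wt1, Cmklr1, Serpina12, Angptl4 and the glucocorticoid-inducible genes Sgk1, Tsc22d3, Fkbp5, Zbtb16 and Klf15 were chosen after their values were seen, as were the lists of ribosomal, respiratory chain and glucocorticoid-inducible genes. Alternatives were median centring, quantile normalization, log2(value + 50), averaging the probe sets of a gene, the brightest probe set over all 11 arrays, a background at the 99th percentile, no filter, and leaving out each array.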

Additional observations from a re-analysis of the deposited data

Results flagged for a closer look

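In 9 of 114 named genes and 3 of 38 lists, the gap between the most extreme array and its nearest neighbour took up more of the range over the 4 arrays than is usual for 4 samples. Chance flags about 1 in 20 groups, and 5.38% of all genes above background met the same limit. These counts cannot be read against either share, because Ddit4, Cap1, Cebpd and Acss2 were named for their high SD and Lipe and Angptl4 were chosen after their values were seen. Array 1 was the low array for Ddit4 (gap over range 0.976), Cap1 (0.961), Mzb1 (0.905), Cebpd (0.862), Sox17 (0.859) and Rgs5 (0.842). It was the high array for Angptl4 (0.842). Array 4 was the low one for Acss2 (0.924) and array 2 for Lipe (0.835). Of the lists, the mean of fibroblast and progenitor genes (0.932), of glucocorticoid-inducible genes (0.89) and of mesothelial genes (0.862) was low on array 1; the glucocorticoid list was drawn up around genes already seen to be low there, so its value follows from that choice.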

How the results depend on the processing

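The number of genes above background lay between 10974 and 12423 under every alternative, against 12291. The median SD of log2 signal, 0.199, was 0.157 with log2(value + 50), 0.231 with all probe sets of a gene averaged, 0.185 with the background at the 99th percentile, 0.299 with no filter on low values, and 0.169 to 0.198 when an array was left out. The count of genes with SD over 0.5, 1153, became 264, 1875, 584 and 6221 under the same 4 settings and 885 to 1203 without 1 array, lowest without array 1. Of the 100 brightest genes 60 remained with all probe sets of a gene averaged, and 96 to 98 when an array was left out. Of 37 lists, 16 had an SD of the list mean over 0.2, against 9 with log2(value + 50) and 6 to 17 when an array was left out, with 6 without array 1. For the named genes a mean log2 signal was compared with the gene's SD over the 4 arrays. With all probe sets averaged it moved by more than that SD in 53 genes and by less in 66. With log2(value + 50) it did so in 18 and not in 101, and with quantile normalization in no gene. Median centring cannot move the mean of 4 arrays, and leaving out an array can hardly move it by an SD, so those settings test little. The SD of a list mean was compared with the SD of its 4 values with an array left out. It stayed within that limit in 278 comparisons and passed it in 90. No paired analysis was possible because a single group was described. Depth has no meaning for an array, and 4 arrays limit the precision of every SD. Below the background of 27.0, values had no reliable order.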
